A study of Mus musculus with 5 samples.

Results

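The proteasome genes described here are the 44 genes, of 27998 in the count tables, whose symbol is Psma, Psmb, Psmc, Psmd or Psme followed by digits only, together with Pomp. The rule uses the symbol alone and no measured value, although it was set with earlier results of these data known. By role they comprise 8 genes of the 20S alpha ring, 4 structural and 3 constitutive catalytic genes of the 20S beta ring (Psmb5, Psmb6 and Psmb7), 3 immunoproteasome catalytic genes (Psmb8, Psmb9 and Psmb10), the thymoproteasome gene Psmb11, the 20S maturation factor Pomp, 6 ATPases and 11 other subunits of the 19S regulator, 3 chaperones of 19S assembly and 4 activators.

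The proteasome degrades proteins marked with ubiquitin. Its 20S core is a barrel of alpha and beta rings with the proteolytic sites on beta subunits, and the 19S regulator recognises, unfolds and feeds in substrates. In lymphoid cells and under interferon, Psmb8, Psmb9 and Psmb10 are known to take the places of Psmb5, Psmb6 and Psmb7, respectively, which changes the peptides made for MHC class I.

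The data were 5 droplet single-cell RNA libraries of CD45-CD31+ bone marrow cells from endosteal preparations of Nes-GFP mice, a strain with a Nestin-GFP reporter that both ages shared. The libraries were young replicates 1, 2 and 3, from mice of 10 to 12 weeks, and aged replicates 2 and 3, from mice of over 20 months. Cells had been sorted as endothelial, frozen and thawed, and the labels name no animals, so p-values measure the spread between libraries. Most cells went against the endothelial label: of 2116 kept cells only 22 were endothelial-like by their markers, 1171 were resting B-lineage cells, 733 were dividing B-lineage cells and 187 were neutrophil-like.

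Total counts of unique molecular identifiers (UMIs, 1 per captured RNA molecule) ranged from 935656 to 5900751 per library, and the median kept cell held from 1889.5 to 4212.5. Young replicate 1 was the deepest library and stood apart in composition, with 599 of the 733 dividing cells and 175 of the 187 neutrophil-like cells. Across all deposited barcodes, 26 barcode sequences occurred in 2 or more libraries, and 5 of these were among the kept cells. Levels are given in CPM, counts per 1000000: the summed UMIs of a gene over those of all genes in a cell class of a library. Each molecule is tagged at its 3′ end once, so levels of different genes were set side by side without a length correction.

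Because Psmb8, Psmb9 and Psmb10 are known interferon targets and moved in different directions below, the stretch before the start site of the catalytic genes is shown (RefSeq, GRCm38.p6). Psmb7 had no entry in the promoter table. Capitals mark matches to CCAAT (a nuclear factor Y motif), TGACNNNGC (an antioxidant response core) or TTCNNNGAA (an interferon gamma activation site), on either strand. For Psmb8 and Psmb9, whose upstream stretch lies in a 5′ exon of another annotated transcript, only 30 bases around the match are given.
Psmb5, chr14:54618023-54618145, minus strand: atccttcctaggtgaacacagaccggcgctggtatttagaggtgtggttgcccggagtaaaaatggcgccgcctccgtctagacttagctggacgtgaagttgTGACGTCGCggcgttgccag
Psmb6, chr11:70525207-70525356, plus strand: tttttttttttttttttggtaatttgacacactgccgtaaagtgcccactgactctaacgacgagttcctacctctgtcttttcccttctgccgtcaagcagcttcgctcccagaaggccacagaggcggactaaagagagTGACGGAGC
Psmb8, chr17:34198087-34198116, plus strand: gtcctccgctgTTCCCAGAAgatgcccccc
Psmb9, chr17:34187331-34187360, minus strand: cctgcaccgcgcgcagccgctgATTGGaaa
Psmb10, chr8:105938445-105938542, minus strand: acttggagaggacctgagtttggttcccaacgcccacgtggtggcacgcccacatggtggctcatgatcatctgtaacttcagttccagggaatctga

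Over windows of 300.0 bases (250 before to 50 after the start), searched on both strands, 37 of the 44 genes had a promoter that was searched. Promoters on chromosome 18, which holds Psma8, were left out. The share over all genes took 1 promoter per gene. A proteasome gene counted if any of its promoters matched, so the 2 shares are not strictly alike. The antioxidant core was found in 6 of the 37 (16.2%), among them the constitutive genes Psmb5 and Psmb6, against 12.5% of these 27025 promoters. CCAAT was found in 14 (37.8%, against 37.9%), with Psmb9 the only immunoproteasome gene among them. TTCNNNGAA was found in 2 (5.41%, against 8.47%), namely Psmb8 and Psmd2. The core of the interferon-stimulated response element was found in 4 (10.8%, against 3.49%), namely Psmb3, Psmd4, Psmd9 and Psme1, and not in the windows of Psmb8, Psmb9 or Psmb10. A match is a run of letters, and nothing about binding was measured.

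The genes lie on 16 chromosomes, with 3 close pairs. Psmb9 (chr17:34181987-34187764, minus strand) and Psmb8 (chr17:34197721-34201454, plus strand) flank Tap1 in the MHC region, 9956 bases apart. Psme1 and Psme2 lie 5911 bases apart and Psmb5 and Psmb11 lie 3410 bases apart on chromosome 14. The annotated extents of 10 of the genes overlap another protein-coding gene, on the same strand for Psma2 and Psmd1. Psmb9 and Tap1 overlap on opposite strands at their 5′ ends, and the counting in the sources used here is not stated to use strand.

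All but a pair of the 44 genes were well detected. Psmb1, a structural beta subunit, was the most abundant, with 4751 UMIs over all kept cells and a UMI in 75.9% of them. Since young replicate 1 holds most of the UMIs, the order is given by the mean CPM of the libraries: Psmb1 (498 ± 32.9, SD, n = 5) was followed by the alpha subunits Psma2 (368 ± 51.5) and Psma3 (311 ± 30.3) and by Psmd8 (305 ± 73.3), a lid subunit of the 19S regulator. Psma7 came to 481 CPM in young replicate 1 and to 196 to 228 CPM in the other libraries. Psmb8 had rank 10 at 224 ± 44.8 CPM. Of the tested genes the chaperone Psmd10 had the fewest UMIs, 313. The tissue-restricted genes Psmb11, known from thymic epithelium, and Psma8, known from testis, had only 12 and 8 UMIs. Psmb11 had no UMI among 4107597 in dividing cells, which allows up to 0.73 CPM by counting error.

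Summed over all 44 genes, the level was 7128 CPM in resting cells of the highest library and 5937 in the lowest, with a mean of 6363 ± 502 (SD, n = 5 libraries). In dividing cells it ran from 7099 to 8263, with a mean of 7696 ± 488 (SD, n = 5). Pro-B-like resting cells, led by the surrogate light chain genes Vpreb1 and Igll1, had 6902 ± 501 (SD, n = 5). Pre-B-like cells had 5618 ± 254 (SD, n = 4 libraries with at least 10 such cells), and MHC-II-high cells, led by Cd74 and H2-Aa, had 6574 ± 609 (SD, n = 5). The ranges of resting and dividing cells met at their ends, the pro-B-like and MHC-II-high ranges overlapped, and every pre-B-like value lay below every pro-B-like value. With every cell thinned to 1000 UMIs, a cell held a median of 6 proteasome UMIs when resting and 8 when dividing (medians of 13 and 33 without thinning, at median depths of 2244 and 4229 UMIs).

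Dividing cells carried more transcripts of most proteasome genes than resting B-lineage cells of the same libraries. Psmb9, the immunoproteasome partner of Psmb6, rose 2.21-fold and Psmd1, the largest scaffold of the 19S base, rose 2.45-fold. All 6 ATPases of the 19S ring and all 3 constitutive catalytic genes rose, while Psmb10 and the activator Psme4 (PA200) fell. The share that rose was 28 of 42 genes tested, or 66.7%, where 26.3% of all 5170 genes tested rose; 2 fell, or 4.76%, where 24.6% of all genes fell (edgeR quasi-likelihood test with the library as a term, Benjamini-Hochberg adjusted p under 0.05 over all genes; 50.9% of all genes passed in either direction). The median log2 fold change was 0.43 over the 42 genes and -0.03 over all genes. Psmb11 and Psma8 were too low to be tested. Fold changes use TMM-scaled library sizes, so they can differ in sign from the CPM of a gene that changed little.

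**Figure D1:**
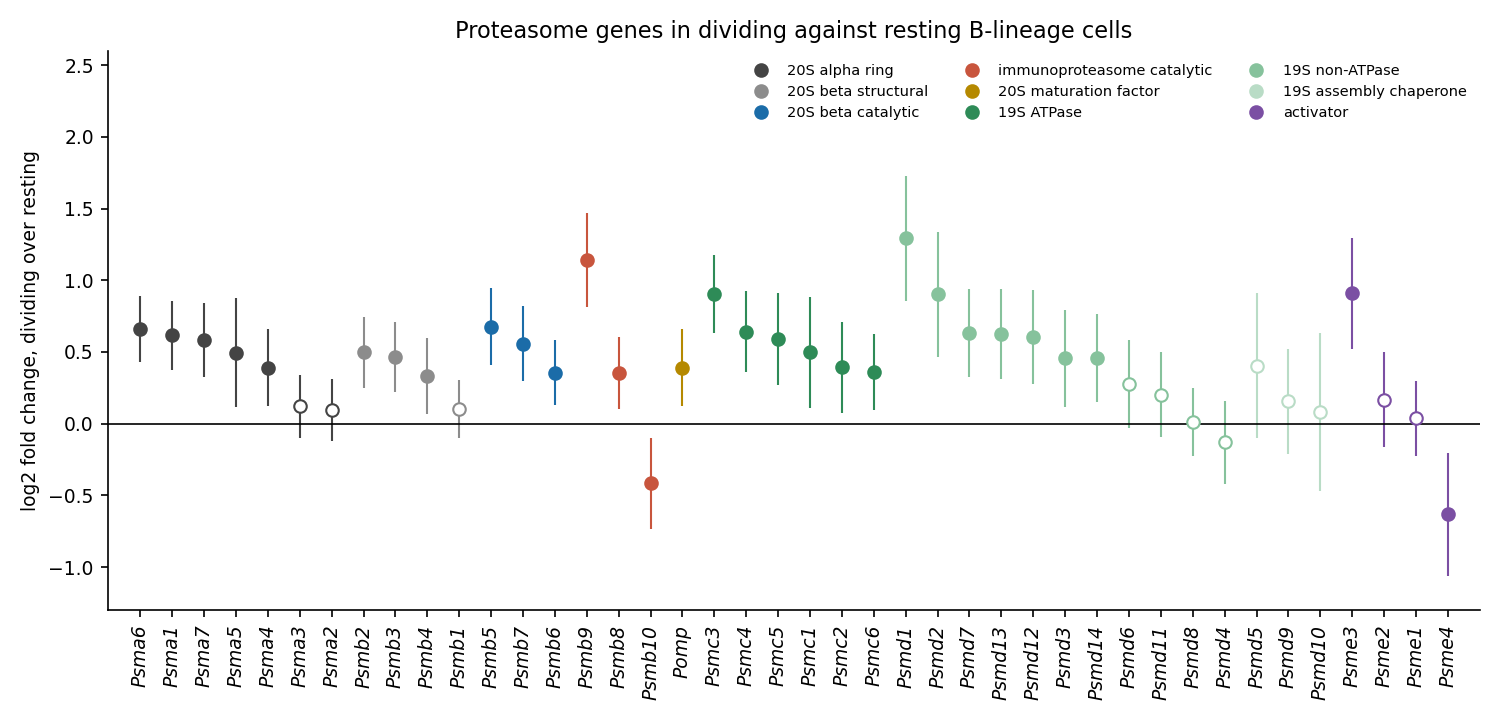
Log2 fold change of dividing over resting B-lineage cells for the 42 genes tested, ordered by role; bars are 95% intervals of the fit over 5 libraries and filled points passed an adjusted p under 0.05. Psmd1 and Psmb9 stand highest at 1.29 and 1.14, and Psme4 and Psmb10 stand lowest at -0.63 and -0.41.

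Psmb9 was at 109, 67.1 and 102 CPM in resting cells of young replicates 1, 2 and 3 and at 107 and 82.0 in those of aged replicates 2 and 3. In dividing cells of the same libraries it was at 211, 247, 140, 185 and 168 CPM. Every dividing value lay above every resting value. The log2 fold change was 1.14 ± 0.17 (SE; edgeR adjusted p = 2.1e-06), higher in 5 of 5 libraries.

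Psmb10, the counterpart of Psmb7, was at 157, 98.0, 139, 118 and 129 CPM in resting cells, in the same library order. In dividing cells it was at 101, 92.1, 91.0, 90.3 and 72.0 CPM. It was lower in 5 of 5 libraries, although the ranges overlapped through young replicates 1 and 2. The log2 fold change was -0.41 ± 0.16 (SE; edgeR adjusted p = 0.034). The call was lost without aged replicate 2, aged replicate 3, young replicate 1 or young replicate 3 (edgeR adjusted p = 0.0525, 0.13, 0.113 and 0.0606), and with DESeq2 (adjusted p = 0.15). It was also lost without the library as a replicate block and when dividing cells were taken by their markers.

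Psmb8 was at 211, 167, 204, 213 and 188 CPM in resting and at 235, 222, 210, 226 and 279 CPM in dividing cells. The groups overlapped and the shift was small. Its log2 fold change of 0.35 ± 0.13 (SE; edgeR adjusted p = 0.023), higher in 5 of 5 libraries, did not pass without aged replicate 3 or young replicate 2 (edgeR adjusted p = 0.13 and 0.063). Psmb8 also did not pass when dividing cells were taken by their markers.

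Among the constitutive catalytic genes, Psmb5, which carries the chymotrypsin-like site, moved most. It was at 211, 105, 145, 142 and 132 CPM in resting and at 282, 201, 203, 239 and 163 CPM in dividing cells, and was higher in 5 of 5 libraries (log2 fold change 0.68 ± 0.14 SE, edgeR adjusted p = 0.00015). Psmb7 rose by a log2 fold change of 0.56 ± 0.13 (SE; edgeR adjusted p = 0.0011) and Psmb6 by 0.36 ± 0.12 (SE; edgeR adjusted p = 0.012), both in 5 of 5 libraries. Psmb5, Psmb6 and Psmb7 did not pass when dividing cells were taken by their markers (edgeR adjusted p = 0.0621, 0.0674 and 0.171). Psmb6 also did not pass with no low-count filter (0.107) or without the library as a replicate block (0.112).

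**Figure D2:**
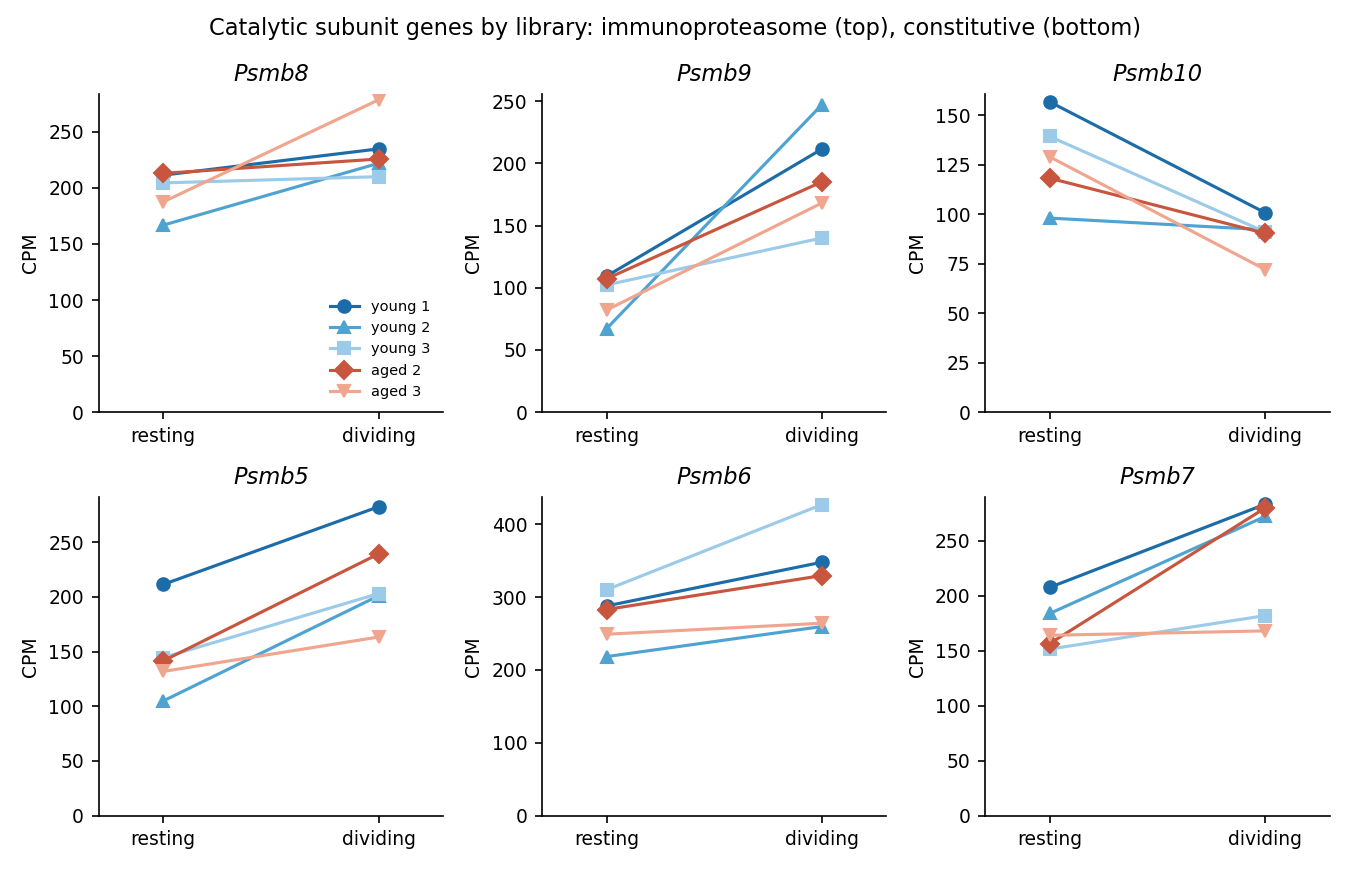
CPM of the 6 catalytic genes in resting and dividing B-lineage cells; each line joins the values of 1 library. Psmb9 climbs in every library and Psmb10 declines in every library, most in aged 3 (129 to 72.0 CPM) and least in young 2 (98.0 to 92.1 CPM).

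The alpha ring gates the core, and 5 of its 7 tested genes rose. Psma6 went from a mean of 236 ± 41.2 to 345 ± 33.8 CPM (SD, n = 5), and Psma1 from 185 ± 19.9 to 264 ± 30.6 CPM. Every dividing value of both genes lay above every resting value. Psma2 and Psma3, at log2 fold changes of 0.10 ± 0.11 and 0.12 ± 0.11 (SE), did not pass. Of the structural beta genes, Psmb2, Psmb3 and Psmb4 rose, and the most abundant gene, Psmb1, had a log2 fold change of 0.10 ± 0.10 (SE; edgeR adjusted p = 0.42), with a higher CPM in 1 of 5 libraries. Its 95% interval excludes a change as large as that of Psmb2 (0.50).

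Pomp, the chaperone that assists assembly and maturation of the 20S core, was at 332, 170, 215, 110 and 155 CPM in resting and at 346, 260, 203, 194 and 168 CPM in dividing cells. It was higher in 4 of 5 libraries, with young replicate 3 lower. The log2 fold change was 0.39 ± 0.14 (SE; edgeR adjusted p = 0.02), and the call was lost without aged replicate 2 or young replicate 2 (edgeR adjusted p = 0.13 and 0.082). Pomp also did not pass when dividing cells were taken by their markers.

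In the 19S regulator, Psmc3 led the ATPases. It was at 106, 86, 132, 142 and 114 CPM in resting and at 178, 163, 217, 221 and 235 CPM in dividing cells, with no overlap between the groups. Its log2 fold change was 0.90 ± 0.14 (SE; edgeR adjusted p = 4.2e-06). Psmc4 followed with 0.64 ± 0.15, and the other ATPases, Psmc5, Psmc1, Psmc2 and Psmc6, ranged from 0.36 to 0.59.

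Of the 11 other 19S subunits, 7 rose and 4 did not pass. Psmd1 was at 25.5, 43.0, 38.8, 31.6 and 35.2 CPM in resting and at 63.4, 79.6, 49.0, 76.8 and 125 CPM in dividing cells, so that the groups did not overlap. Its log2 fold change was 1.29 ± 0.22 (SE; edgeR adjusted p = 2.4e-05). Psmd2, the other large scaffold of the base, had 0.90 ± 0.22 (edgeR adjusted p = 0.0013). The lid subunits Psmd7, Psmd13, Psmd12 and Psmd3 and the deubiquitinase Psmd14 also rose, from 0.46 to 0.63. Psmd4, a ubiquitin receptor, stood at -0.13 ± 0.15 and the abundant lid gene Psmd8 at 0.01 ± 0.12. None of the 3 chaperones of 19S assembly, Psmd5, Psmd9 and Psmd10, passed.

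The activators split. Psme3, which encodes nuclear PA28 gamma, rose with a log2 fold change of 0.91 ± 0.20 (SE; edgeR adjusted p = 0.00041) from a mean of 47.8 ± 13.2 to 82.5 ± 9.66 CPM, with no overlap between the groups. Psme4 was at 98.4, 72.2, 38.8, 42.6 and 61.5 CPM in resting and at 61.3, 25.1, 28, 27.1 and 43.2 CPM in dividing cells. It was lower in 5 of 5 libraries (log2 fold change -0.63 ± 0.22 SE, edgeR adjusted p = 0.018). Its call was lost without young replicate 2 (edgeR adjusted p = 0.11), with DESeq2 (adjusted p = 0.11) and without the library as a replicate block (edgeR adjusted p = 0.49). The call was also lost when dividing cells were taken by their markers. Psme1 and Psme2, the interferon-inducible PA28 alpha and beta, had log2 fold changes of 0.04 ± 0.13 and 0.17 ± 0.17 and did not pass.

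How firmly these calls stand depended on the model. Of the 30 genes called, 17 were called without each library in turn, and 9 were called under each of 13 alternatives: Psma1, Psma6, Psmb9, Psmc3, Psmc4, Psmd1, Psmd2, Psmd13 and Psme3. Of the weaker calls, those of Psmb4, Psmd3, Psmd14, Psmc2, Psma5 and Psmc5 were lost without aged replicate 2 (edgeR adjusted p from 0.0511 to 0.279), and those of Psmd3, Psmd14, Psmc1, Psmc2, Psmc6 and Psma4 without aged replicate 3 (0.0502 to 0.185). Those of Psmb4, Psmd3, Psmd14, Psmc1 and Psmc6 were lost without young replicate 1 (0.0558 to 0.0965), those of Psmb4, Psma4, Psma5, Psmc1 and Psmc2 without young replicate 2 (0.0629 to 0.183), and those of Psmb4 and Psmc6 without young replicate 3 (0.0903 and 0.0567). With DESeq2 18 of the 42 rose (42.9%, against 20.7% of all genes) and 0 fell (17.4%), and without the library as a replicate block 19 rose (45.2%, against 22.3%) and 0 fell (20.2%). When dividing cells were taken by their markers in place of the clusters, 9 rose (21.4%, against 17.5%) and 0 fell (14.5%), so that the members' share lay near that of all genes.

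The 11 neutrophil markers summed to between 1.7 and 222.3 CPM in resting and between 0.0 and 199.3 CPM in dividing cells, with 10 of 11 detected in each and Retnlg and Mmp8, respectively, at 0. Pan-endothelial markers (11 and 9 of 14 detected) summed to between 185.9 and 276.9 and between 72.5 and 129.7 CPM, with Tek, Cldn5 and Plvap at 0 in both. The 8 B-lineage markers did not overlap, at 14850.2 to 16916.0 CPM in resting and 6495.9 to 9311.1 in dividing cells. The part of these differences in the proteasome results was not tested. Of the neighbouring pathway genes, the MHC class I list moved the other way: 1 of 12 tested rose and 7 fell, with a median log2 fold change of -0.58. Over all 5170 genes tested 26.3% rose and 24.6% fell. The gene that rose was Tap1, the peptide transporter beside Psmb9, at 1.04 ± 0.17 (SE; edgeR adjusted p = 8.2e-06). Those that fell included H2-K1 (-1.03), H2-D1 (-0.95), B2m (-0.68), Tapbp (-0.99) and the regulators Irf1 (-1.17) and Irf8 (-0.47).

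Genes outside the rule that act with the proteasome moved less uniformly. Of all 5170 genes tested 26.3% rose and 24.6% fell, and the rising counts of these short lists lay near that share. Of 3 tested chaperones of 20S assembly, Psmg2 rose (1.48 ± 0.29 SE). Of 6 tested 19S genes outside the rule, the deubiquitinase Uchl5 (1.41 ± 0.18) and Sem1 (0.24 ± 0.10) rose. Of 8 tested genes of ubiquitin activation and delivery 2 rose, among them Rad23b (0.42), and Zfand5 fell (-0.38). Of 7 tested regulators of proteasome gene transcription, Nfya (0.88) and Nfyb (1.18) rose and Nfe2l2, an antioxidant response regulator, fell (-1.46). No gene of the last list other than these passed.

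Within the dividing cells, 2 clusters could be compared in 4 libraries: one led by growth and early S phase genes (Nrgn, Ung, Gins2, Mif; 301 cells) and one led by histone and mitosis genes (Hist1h2ae, Cenpf, Top2a; 432 cells). This pairing was chosen after the clusters were seen, because clusters of S and G2/M phase could not be separated in enough libraries. The cluster names give leading genes and not phases. At the finer clustering S phase clusters held 271 and 154 dividing cells. Young replicate 1 had 153 cells in the G2/M cluster there. Young replicates 2 and 3 and aged replicate 3 had 3, 1 and 4. Most of the 12, 17 and 16 mitosis cluster cells of those libraries were thus not G2/M cells. In the growth cluster 10 of 35 proteasome genes tested were higher, or 28.6%, where 20.8% of 1818 genes were higher (edgeR; 39.1% passed in either direction). None of the 35 was lower, where 18.3% of all genes were. The median log2 fold change was 0.35 over the 35 genes and -0.03 over all genes.

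The PA28 genes, which had not passed between dividing and resting cells, were among the largest. Psme2 was at 165, 68.7, 148 and 108 CPM in the growth cluster of young replicates 1, 2 and 3 and aged replicate 3 and at 72.1, 76.3, 109 and 43.5 CPM in the mitosis cluster (log2 fold change 1.14 ± 0.25 SE, edgeR adjusted p = 0.0017). Young replicate 2 went the other way. Psme1 was at 210, 181, 160 and 230 CPM against 132, 76.3, 145 and 87.0 CPM, with no overlap (log2 fold change 0.91 ± 0.21 SE, edgeR adjusted p = 0.0025).

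Psma7 (0.95 ± 0.18 SE), Psmb3 (0.71 ± 0.18), Psmb8 (0.68 ± 0.18) and Pomp (0.65 ± 0.18) were also higher in the growth cluster, as were Psmc5, Psma4, Psmb5 and Psma3 (0.47 to 0.72). Psmb8 was at 269, 244, 285 and 309 CPM in the growth cluster and at 200, 178, 90.7 and 217 CPM in the mitosis cluster, with no overlap. Psmb9 was not: it stood at 184, 250, 103 and 151 CPM against 239, 242, 199 and 203 CPM (log2 fold change -0.22 ± 0.18 SE, edgeR adjusted p = 0.36). Psmb6, Psmb7 and Psmb10 had log2 fold changes of 0.25 ± 0.16, 0.34 ± 0.18 and 0.18 ± 0.23 and did not pass. Without the library as a replicate block 0 of the 35 genes passed (6 at an unadjusted p under 0.05), with DESeq2 4 passed (11.4%, against 22.7% of all genes), and without young replicate 1, which held 599 of the dividing cells, 2 of 28 passed (7.14%, against 29.9% of 1403 genes), Psme1 and Psmb3. Psme2 and Psmc5 were too low to be tested without it, and Psma7 (edgeR adjusted p = 0.0624), Psmb8 (0.0577), Pomp (0.201), Psma3 (0.132), Psma4 (0.613) and Psmb5 (0.46) were lost. Without young replicate 2, Pomp (0.0663), Psma3 (0.135), Psma4 (0.163) and Psmb5 (0.0549) were lost, without aged replicate 3 Psma3 (0.0636), Psmb5 (0.0905) and Psmc5 (0.0823), and without young replicate 3 Psmc5 (0.0511).

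Beside them, Calr and Pdia3, which fold MHC class I in the endoplasmic reticulum, were higher in the growth cluster (1.01 and 0.91), and H2-K1 and H2-D1 were lower (-0.54 and -0.55). These were 2 higher and 2 lower of 7 tested genes of the MHC class I list. Of all 1818 genes 20.8% were higher and 18.3% lower. Sem1 (0.46) and Rad23b (0.76) were higher and Nfyb (-1.03) lower, and no 20S assembly chaperone could be tested. In the finer clustering a G2/M cluster held 10 or more cells only in young replicate 1, so that it gave no test. There Psmb9 made up 39.7% of the Psmb9 and Psmb6 UMIs in 153 G2/M cells, 40.8% in 351 S phase cells and 31.9% in 95 growth cells.

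Among resting cells few proteasome genes differed by stage, and Psmb8 was higher in pro-B-like cells than in both other stages. It was at 352, 284, 304, 254 and 227 CPM in pro-B-like cells of young replicates 1, 2 and 3 and aged replicates 2 and 3. In MHC-II-high cells it was at 121, 135, 142, 237 and 168 CPM. It was higher in pro-B-like cells in 5 of 5 libraries, although aged replicate 2, with 13 MHC-II-high cells, differed little. Its log2 fold change was 0.84 ± 0.19 (SE; edgeR adjusted p = 0.00099), and it passed in each of 12 alternatives. Of these, keeping the haemoglobin-high cells left the fit the same.

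In all, 4 of 37 genes tested were higher in pro-B-like than in MHC-II-high cells, or 10.8%, where 13.8% of 3033 genes were higher (edgeR; 27.0% passed in either direction). None of the 37 was lower, where 13.2% of all genes were. Neither share was larger than that of all genes. The median log2 fold change was 0.13 over the 37 genes and -0.01 over all genes. Besides Psmb8 these were Psme1 (0.48 ± 0.18 SE), Psma2 (0.43 ± 0.14) and Pomp (0.42 ± 0.16), each with an edgeR adjusted p between 0.02 and 0.048. Psme1 was lost without aged replicate 2, aged replicate 3, young replicate 2 or young replicate 3 (edgeR adjusted p from 0.065 to 0.27). Psma2 was lost without aged replicate 3, young replicate 1 or young replicate 3 (0.066 to 0.14), and Pomp without any 1 of the 5 libraries (0.063 to 0.14). Psmb9 (0.46 ± 0.24), Psmb10 (0.14 ± 0.21), Psmb6 (0.17 ± 0.16), Psmb5 (-0.07 ± 0.18) and Psmb7 (-0.26 ± 0.17) did not pass. At the finer clustering many of the 497 MHC-II-high cells fell in a pre-B-like cluster, and 2 of 35 genes were higher (5.71%, against 13.1% of 2379 genes). That cluster held 265 cells led by Rgs16, Ly6d and Socs1, with 97 from young replicate 3 and 159 from aged replicate 3. Those libraries had 161 and 226 MHC-II-high cells before. The MHC-II-high clusters then held 208 and 52 cells.

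**Figure D3:**
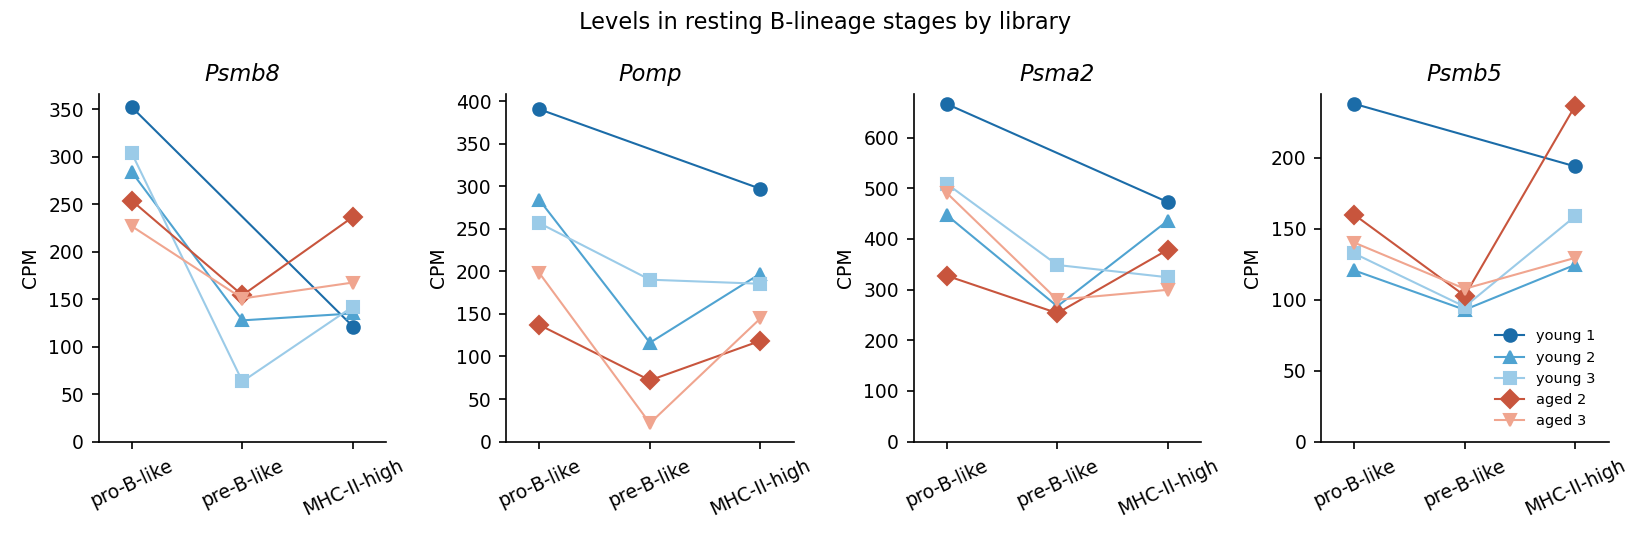
CPM of Psmb8, Pomp, Psma2 and Psmb5 in the resting stages, each line 1 library (young 1 has no pre-B-like value, with 2 such cells). Psmb8 is highest in pro-B-like cells in every library, from 227 to 352 CPM, and the lowest Pomp value, 21.5 CPM in the pre-B-like cells of aged 3, is a single UMI.

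Against pre-B-like cells, led by Cd2 and compared in 4 libraries after the clusters were seen, Psmb8 was again higher in pro-B-like cells. It was at 128, 63.4, 154 and 151 CPM in pre-B-like cells of young replicates 2 and 3 and aged replicates 2 and 3, below every pro-B-like value (log2 fold change 0.94 ± 0.23 SE, edgeR adjusted p = 0.0014). All pre-B-like cells together held 99 UMIs of Psmb8, and young replicate 3 and aged replicate 3 had only 20 and 30 such cells. Both comparisons share the pro-B-like cells. Pomp was at 116, 190, 72.0 and 21.5 CPM in pre-B-like and at 284, 257, 137 and 198 CPM in pro-B-like cells, higher in 4 of 4 libraries (1.13 ± 0.26 SE, edgeR adjusted p = 0.00071). The pre-B-like values rest on 40, 6, 21 and 1 UMIs. These 2 genes passed under each of 11 alternatives, of which keeping the haemoglobin-high cells again left the fit the same.

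Psma2 (0.58 ± 0.19 SE) and Psma5 (0.98 ± 0.34) made up the rest of the 4 of 39 genes called, or 10.3%, where 10.8% of 3763 genes were higher and 10.2% lower (edgeR; 21.0% in either direction), and none of the 39 was lower. Of the 39 genes 31 had a positive log2 fold change, with a median of 0.27 against 0.01 over all genes. At the finer clustering 6 of 41 passed, 5 of them higher (12.2%, against 14.3% of 3926 genes) and Psme4 lower. Psma2 was lost without aged replicate 3 or young replicate 2 (edgeR adjusted p = 0.087 and 0.11) and Psma5 without aged replicate 2, aged replicate 3 or young replicate 2 (0.094, 0.0504 and 0.153). Psmb6 (0.43 ± 0.21), Psmb5 (0.49 ± 0.26), Psmb9 (0.55 ± 0.30), Psmb7 (0.33 ± 0.26) and Psmb10 (0.33 ± 0.27) did not pass. Of the MHC class I list, Pdia3 and B2m were higher in pro-B-like cells than in pre-B-like cells (1.01 and 0.37) and than in MHC-II-high cells (1.18 and 0.27), and Irf8 was lower in both (-0.53 and -0.47). Irf1 was lower than in pre-B-like cells (-0.76), and Tap2 (0.95) and Ddi2 (1.36), a protease that activates a proteasome gene regulator, were higher than in MHC-II-high cells. Against pre-B-like cells, 2 of 12 tested MHC class I genes were thus higher and 2 lower. Against MHC-II-high cells 3 of 12 were higher and 1 lower, where 13.8% and 13.2% of all 3033 genes were. Of the ubiquitin genes Rps27a was higher in both comparisons (0.35 and 0.24).

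Psme4, which encodes the activator PA200, did not reach the count minimum of either stage comparison, so the counts above leave it out; it is named here after its values were seen. It was at 38.1, 21.3, 17.1, 33.0 and 28.9 CPM in pro-B-like cells and at 139, 41.6, 56.3, 71.1 and 73.7 CPM in MHC-II-high cells. In pre-B-like cells of the last 4 of these libraries it was at 102, 31.7, 51.4 and 129 CPM. Pro-B-like and MHC-II-high values did not overlap, and Psme4 was lower in pro-B-like cells in each library of both comparisons. The counts were low, with 31 UMIs of Psme4 in all pro-B-like, 76 in all MHC-II-high and 57 in all pre-B-like cells. Because Psme4 was picked from these same values, the p-values that follow are no separate evidence. With no low-count filter its log2 fold change was -1.47 ± 0.35 against MHC-II-high cells and -1.35 ± 0.41 against pre-B-like cells (SE; edgeR adjusted p = 0.00084 and 0.023). Within dividing cells it was at 45.2, 0, 11.4 and 28.7 CPM in the growth cluster and at 77.6, 76.3, 54.4 and 72.5 CPM in the mitosis cluster, with no overlap, and it did not pass there (-0.88 ± 0.33 SE, edgeR adjusted p = 0.089 with no low-count filter).

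Markers of other cells also differed by stage. The pan-endothelial list summed to between 284.3 and 462.1 CPM in pro-B-like, 31.7 and 237.0 in pre-B-like and 119.2 and 307.9 in MHC-II-high cells, with 9 of 14 detected in each and Tek, Cldn5 and Plvap at 0. The erythroid list (6, 4 and 5 of 7 detected) summed to between 156.1 and 321.8, 14.5 and 64.6, and 0.0 and 86.4 CPM. The monocyte and macrophage list (4, 3 and 5 of 8 detected, with Ccr2 and Adgre1 at 0) summed to between 38.1 and 113.6, 0.0 and 17.1, and 0.0 and 59.6 CPM. All 3 lists were higher in pro-B-like than in pre-B-like cells without overlap, and their part in the results for Psmb8 and Pomp was not tested. The neutrophil list ranged from 0.0 to 236.3 CPM over the 3 stages.

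The balance of the 3 immunoproteasome genes against their 3 counterparts was set out as a share of UMIs. Psmb8, Psmb9 and Psmb10 together made up 40.3%, 39.5%, 42.4%, 43.0% and 42.2% of the 6 genes' UMIs in resting cells, in the library order used above (mean 41.5 ± 1.48%, SD, n = 5). In dividing cells they made up 37.4%, 43.4%, 35.2%, 37.1% and 46.6% (39.9 ± 4.8%, SD, n = 5). The resting values spread little and lay within the wider range of the dividing values. By stage the share was 46.1 ± 2.50% in pro-B-like cells, 41.8 ± 3.14% (n = 4) in pre-B-like cells and 36.9 ± 3.97% in MHC-II-high cells, and every pro-B-like value lay above every MHC-II-high value. For a single library the exact 95% binomial interval was, for example, 34.9% to 45.9% for the resting cells of young replicate 1, and it covers counting error only.

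The single pairs moved apart more than their sum. Psmb9 went from 25.6 ± 1.80% to 37.2 ± 8.59% of the Psmb9 and Psmb6 UMIs, with dividing values of 37.8%, 48.8%, 24.7%, 36.0% and 38.9%. All but young replicate 3, where 20 and 61 UMIs were counted, lay above every resting value. Psmb10 went from 42.5 ± 4.79% to 27.8 ± 3.74% of the Psmb10 and Psmb7 UMIs and was lower in 5 of 5 libraries, with 34.8% the lowest resting and 33.3% the highest dividing value. Psmb8 was 57.8 ± 4.48% of the Psmb8 and Psmb5 UMIs in resting and 52.1 ± 6.69% in dividing cells, with overlap. These shares are descriptions with no test.

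**Figure D4:**
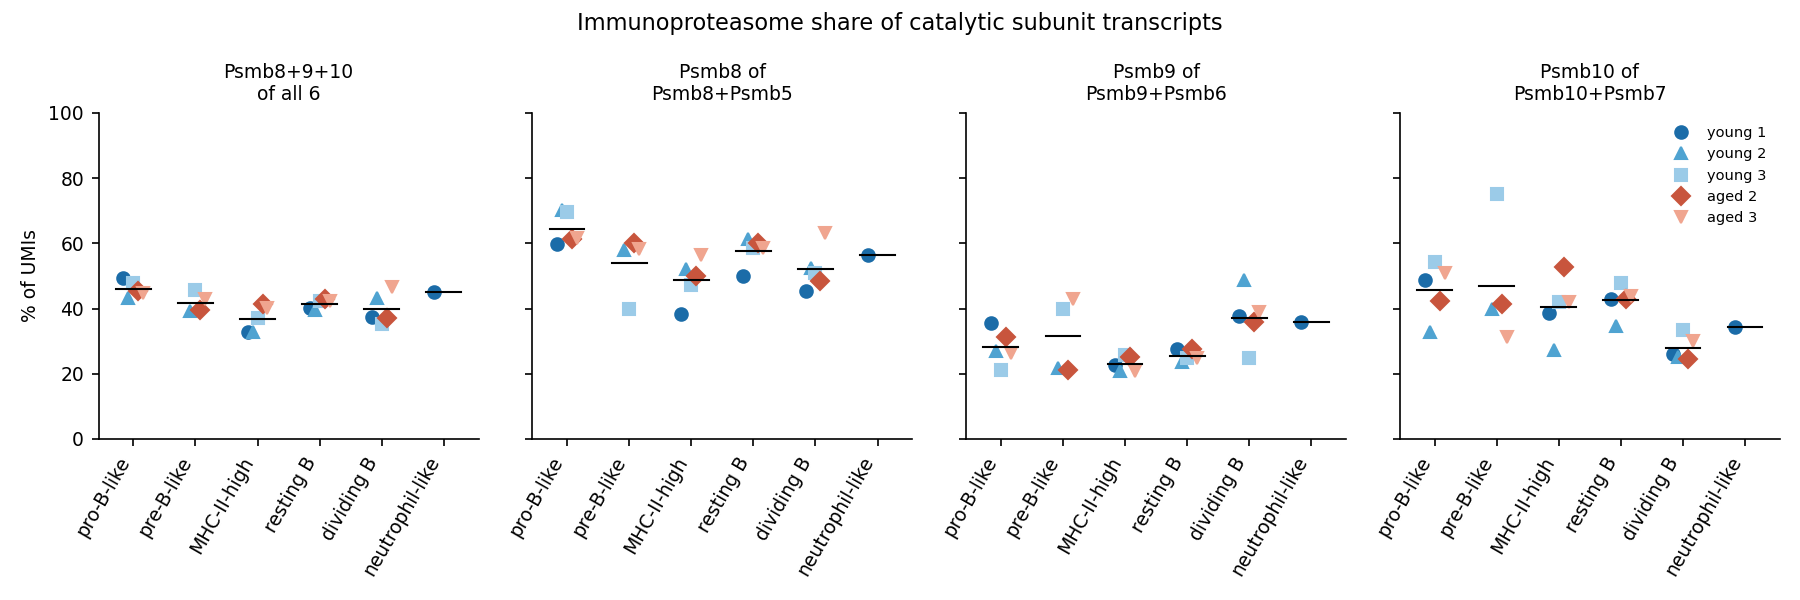
Share of UMIs, in %, from immunoproteasome genes among all 6 catalytic genes (first panel) and within each pair, per library; black lines are means. In dividing cells the Psmb9 share sits higher (mean 37.2%) and the Psmb10 share lower (mean 27.8%) than in resting cells (25.6% and 42.5%); pre-B-like values of young 3 rest on 24 UMIs.

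Neutrophil-like cells could be described in young replicate 1 only, with 175 cells, so that there is no replicate and no test. That cluster also held monocyte, basophil and bone matrix markers. Proteasome genes summed to 8291 CPM there. Against resting B-lineage cells of the same library, 3 of 42 genes were at least 2-fold higher (16.9% of 7500 genes with at least 20 UMIs were) and 1 was at least 2-fold lower (22.5% of all genes were). Fewer proteasome genes than genes at large were past that fold, and their median ratio was 1.2, against 0.91 over all genes. The classes held 1965267 and 274407 UMIs, so genes with few resting UMIs can pass 2-fold by counting error. The genes were not matched for abundance, and its part in these shares was not tested.

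Psma7 was at 661 CPM (626 to 698, exact Poisson 95% interval) in neutrophil-like and at 302 (241 to 375) in resting cells. Psmd2 was at 75.3 (63.7 to 88.5) against 25.5 (10.3 to 52.6) and Psmd1 at 70.7 (59.5 to 83.5) against 25.5 (10.3 to 52.6) CPM. Psme4 was at 21.9 (15.8 to 29.5) against 98.4 (64.8 to 143) CPM. Psmb8 was at 418 (390 to 447) against 211 (161 to 273) CPM, just inside 2-fold, whereas the intervals of Psmb10 overlapped, at 129 (113 to 146) against 157 (113 to 211). The immunoproteasome share of the 6 catalytic genes was 45.2% (43.4% to 46.9%, exact binomial). These intervals cover counting error only. In the 22 endothelial-like cells of all libraries pooled, the genes summed to 5417 CPM (4854 to 6028), with 36 UMIs of Psmb8, Psmb9 or Psmb10 and 24 of Psmb5, Psmb6 or Psmb7 (exact interval of the immunoproteasome share 46.5% to 72.4%).

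The libraries were made to compare young with aged mice. In resting B-lineage cells 0 of 42 proteasome genes passed between the 2 aged and the 3 young libraries, and 0 of 6510 genes (0.0%) passed in all (edgeR; 127 genes and 1 proteasome gene at an unadjusted p under 0.05; DESeq2 also called 0, with 51 and 1). In simulated counts with a true log2 fold change of 1, this comparison recovered 22.1% of the changed genes. Most changes of that size would thus be missed, and the count of 0 does not exclude them. Of the 42 genes 32 were lower in the aged libraries, with a median log2 fold change of -0.11 against -0.01 over all genes. This lean varied with the libraries used. It was 27 genes, with a median of -0.06, without young replicate 1, without young replicate 3 or with the replicate number as a block. Without young replicate 2 it was 35 genes, with a median of -0.16. The gene under 0.05 was Pomp: its resting level of 332, 170 and 215 CPM in the young and 110 and 155 CPM in the aged libraries did not overlap, with a log2 fold change of -0.89 ± 0.32 (SE; edgeR adjusted p = 1.0). Psmb8 stood at -0.02 ± 0.26, Psmb9 at -0.02 ± 0.31, Psmb10 at -0.14 ± 0.29, Psmb5 at -0.20 ± 0.31, Psmb6 at -0.10 ± 0.27 and Psmb7 at -0.22 ± 0.26.

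In dividing cells 0 of 40 proteasome genes and 0 of 3686 genes (0.0%) passed (edgeR; 131 genes at an unadjusted p under 0.05, 2 of them proteasome genes; DESeq2 0, with 42 and 0). The 2 were Pomp (-0.71 ± 0.33 SE) and Psmb4 (-0.67 ± 0.31). Psmb5, Psmb6, Psmb7, Psmb9 and Psmb10 had log2 fold changes from -0.34 to -0.26 and Psmb8 one of 0.09, each with an SE of 0.30 to 0.34. No gene of the pathway lists passed in either class. For dividing cells the recovery of simulated log2 fold changes of 1 was 17.6%, so the count of 0 does not exclude changes of that size here either.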

How the data were processed

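The authors deposited whole-number UMI counts for each gene and barcode, and the submitters' processing notes name Cell Ranger and mm10. The version of Cell Ranger and its use of strand were not given in the sources used here. The notes also name R 3.5.2, edgeR 3.24.3 and DESeq2 1.22.2 without a role. Gene symbols were matched for 27645 of 27998 identifiers, and positions come from GENCODE on GRCm38. Barcodes with at least 500 genes, at least 1000 UMIs and at most 10% mitochondrial UMIs were kept (2116 of 3384). Clusters came from scanpy 1.11.5 (2000 variable genes, none of them a proteasome gene, 30 components, 15 neighbours) and leidenalg 0.10.2 at resolution 0.8, which gave 8 clusters named from fixed markers. Scrublet called 58 doublets at an expected rate of 2%, which were kept, and 3 cells with at least 1% haemoglobin UMIs were left out after their values were seen. With libraries as the replicates, counts were pooled over the cells of each class in a library (at least 10 cells) and tested with edgeR 4.0.16 (quasi-likelihood, TMM, filterByExpr, in R 4.3.3), with the library as a term within libraries, and tested on simulated data. DESeq2 1.42.0 was an alternative, as were other scaling, filters, clusters and libraries left out. Full values are given for the catalytic genes and Pomp and for up to 10 others of smallest p per comparison. The members and lists were chosen with earlier results of these data known. The planned tests of neutrophil-like cells and of G2/M against S phase could not be made, because only 1 library held 10 such cells. Protein sequences were not used here. Some genes of the pathway and marker lists are not reported here.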

Additional observations from a re-analysis of the deposited data

Results flagged for a closer look

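Of 38 groups of 4 or 5 libraries checked for a library far from the others, 3 were marked, and chance marks about 1 in 20. Psmb10 was lower in pro-B-like than in MHC-II-high cells of aged replicate 2 by a within-library log2 ratio of -1.14, while the other libraries ran from 0.11 to 0.59. Pomp had a log2 ratio of 0.0870 in the same library and comparison, against 0.40 to 0.50 in the others; aged replicate 2 held 13 MHC-II-high cells. Psmb8 was higher in the growth than in the mitosis cluster of young replicate 3 by a log2 ratio of 1.54, against 0.42 to 0.48 in the others; that library held 20 and 17 such cells.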

How the results depend on the processing

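The number of proteasome genes called in dividing against resting cells, 30 of 42, was 18 with DESeq2, 19 with no low-count filter, 19 without the library as a replicate block and 9 when dividing cells were taken by at least 2 of 10 markers (21.4%, against 32.0% of all genes called, where it was 71.4% against 50.9%), and 22 to 27 without each library. The 4 called between pro-B-like and MHC-II-high cells became 1 with DESeq2, 2 with no low-count filter, 1 without the replicate block and 2 at resolution 1.2, and 1 to 3 without each library. The 4 called against pre-B-like cells became 2 with DESeq2, 6 at resolution 1.2 (1 of them, Psme4, lower) and 2 to 5 without each library. The 10 called in the growth cluster became 4 with DESeq2, 0 without the replicate block and 2 to 12 without each library. By age 0 were called under each alternative, also with the replicate number as a replicate block (25 of 6510 genes called in resting and 1 of 3686 in dividing cells); the difference of replicates 2 and 3 correlated at 0.31 between young and aged resting cells across 6510 genes, and only 2 numbers are shared, so they were not taken to pair the libraries. The pre-B-like immunoproteasome share was 38.1% with at least 2000 UMIs per cell, in 2 libraries; the other shares and levels moved by less than 1 SD. A tally of single genes under the alternatives covered only part of the genes tested. In it 731 values kept their side of the threshold, 93 lost and 3 gained a call, and 0 reversed with a call. The kept values include 91 from each age comparison, where no proteasome gene was called to begin with, so the tally does not measure how firm the calls were. Keeping the proteasome genes for clustering could not change the clusters, because none was among the 2000 variable genes. The growth cluster was not compared at resolution 1.2. The cause of these changes was not tested.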
